A study of Caenorhabditis elegans with 24 samples.

Results

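Flavin-containing monooxygenases are enzymes that use FAD, NADPH and oxygen to oxygenate soft nucleophiles such as sulfur and nitrogen atoms, in foreign compounds as well as in metabolites of the cell. The C. elegans genes fmo-1 to fmo-5 encode this family. In worms, fmo-2 is known as a stress-inducible member that HIF-1, the hypoxia-inducible factor, switches on, that also responds to dietary restriction through HLH-30 and NHR-49, and whose expression in the intestine is tied to long life. These 5 genes were taken by name out of 20392 genes, because fmo-2 was known from the same data to rise on auxin in both strains studied. That rise over time is therefore given as a description with no test, and the tests concern only the strains, which were not used in the choice.

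The RNA came from dissected intestines of adult hermaphrodites fed OP50 bacteria at 20 °C. Pol I-AID animals carry qzIs15, in which RPOA-2, a core subunit of RNA polymerase I, bears a degron and GFP, together with ieSi57, which expresses the plant F-box protein TIR1 from the eft-3 promoter. With auxin, TIR1 sends the degron-tagged protein to the proteasome. TIR1 animals carry ieSi57 alone, with unc-119(ed3) in their listed genotype, and receive the same auxin without a degron on RPOA-2. Each strain was sampled after 0 h (0 mM auxin), 12 h and 24 h (1 mM auxin), with 4 replicates in each of the 6 groups and 30 intestines pooled per condition. The groups were Pol I-AID at 0, 12 and 24 h and TIR1 at 0, 12 and 24 h. TIR1 is expressed broadly and not in the intestine alone, replicate 1 came from less outcrossed versions of both strains than replicates 2 to 4, and no group was kept 12 or 24 h without auxin. Auxin, transfer to new plates and age therefore cannot be told apart in any change over time.

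The libraries held 3.18 to 29.5 M exon counts (median 20.8 M), of which vitellogenin genes took 67.6 to 79.9%, so that 1.03 to 9.01 M counts per library were left for all other genes. The 10 intestine markers were present in every group and summed to 300874 to 531733 CPM (counts scaled to the same TMM-corrected library size). They include the vitellogenin genes vit-2 and vit-6, and the sum was not split into these and the other markers. The summed markers of hypodermis ran from 2.2 to 185.6 CPM, of germline up to 82.2, of body wall muscle up to 57.5, of pharynx up to 24.0, of neurons up to 4.8 and of sperm up to 2.7 CPM. At 24 h, 1 of 2 tested neuron markers (unc-13) was higher in Pol I-AID at FDR under 0.05 and at least 2-fold by edgeR. The only pharynx marker tested (myo-1) was lower. No tested marker of hypodermis, germline, body wall muscle or sperm passed these thresholds, which 4.35% of all tested genes passed upwards and 3.36% downwards. DESeq2 and limma each had 1 neuron marker higher and 0 pharynx markers past the thresholds. The summed neuron markers were at 3.40 to 4.82 CPM in Pol I-AID, against 1.02 to 2.26 CPM in TIR1. The value of myo-1 was −4.73 on the log2 scale (FDR 0.0482) and turned to 0.24 without replicate 3, and the 24.0 CPM of pharynx markers were in TIR1 24 h replicate 3. The part of these tissues in the results below was not tested. In bulk tissue, fewer cells with an mRNA and less of it in each cell cannot be told apart.

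The library labelled TIR1 12 h replicate 4 stood apart from its group. Over the 6903 genes tested, its log2 levels differed from the mean of TIR1 at 0 h by a root mean square of 0.366 and from the mean of the other 3 TIR1 12 h libraries by 0.552. In those other 3 libraries the order was the reverse, with 0.615 to 0.640 to the mean at 0 h and 0.413 to 0.492 to the mean of the rest of their group. Vitellogenin genes took 67.6% of its counts, against 71.4 to 76.5% in the other TIR1 12 h libraries and 67.6 to 69.4% in TIR1 at 0 h. The comparisons are therefore given with this library, as labelled, and the main ones also without it. Other values at 12 h, such as the counts of called cyp, gst and ugt genes, are given with it only.

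Before auxin, fmo-2 was almost absent. In Pol I-AID at 0 h the libraries contained 0, 0, 2 and 0 counts, against 0, 1, 4 and 0 counts in TIR1 at 0 h. The totals of 2 and 5 counts are too few for a fold change between the strains, and none is given. The 4 counts were in the shallowest library of all, where they came to 0.965 CPM, with 3 counts there corresponding to 0.724 CPM.

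After 12 h on auxin, fmo-2 was at 26.3, 18.9, 20.8 and 28.4 CPM in Pol I-AID, against 62.6, 17.9, 60.5 and 1.49 CPM in TIR1. The Pol I-AID libraries lay close together (coefficient of variation 18.99%), whereas the TIR1 libraries spanned the whole range on both sides of them, from the 40 counts of the library labelled replicate 4 to 1572 counts in replicate 3. The means were 23.6 ± 4.49 CPM in Pol I-AID, against 35.6 ± 30.7 CPM in TIR1 (SD, n = 4 each). Without the library labelled replicate 4 the TIR1 mean was 47.0 ± 25.2 CPM (SD, n = 3), and TIR1 replicate 2, at 17.9 CPM, was still lower than all Pol I-AID libraries.

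After 24 h, fmo-2 reached 30.8, 33.1, 40.8 and 35.3 CPM in Pol I-AID, against 124, 61.8, 116 and 87.0 CPM in TIR1. All 4 Pol I-AID libraries were below all 4 TIR1 libraries. The means were 35.0 ± 4.30 CPM in Pol I-AID, against 97.3 ± 28.6 CPM in TIR1 (SD, n = 4 each), a ratio of means of 0.360. Per kb of exon, fmo-2 at 24 h was thus at a higher level than 90.8% of the tested genes in Pol I-AID and 95.5% in TIR1.

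**Figure D1:**
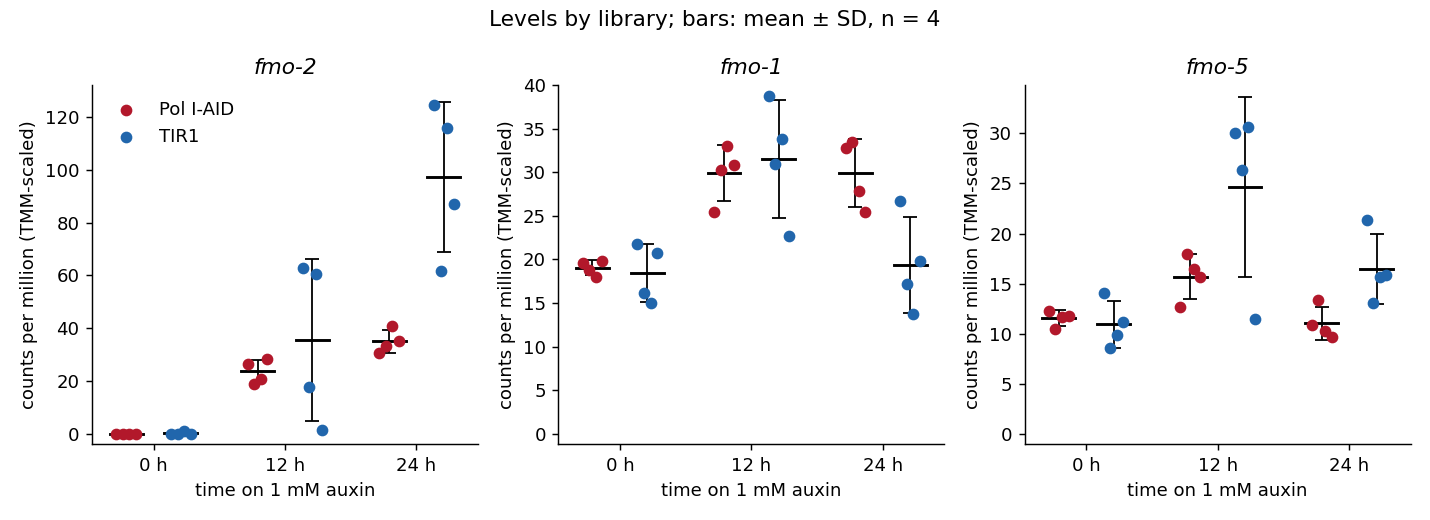
Levels of fmo-2, fmo-1 and fmo-5 in CPM (y axes, linear) in each of the 24 libraries at 0, 12 and 24 h on auxin (x axes); red points are Pol I-AID, blue points TIR1, and black bars the mean ± SD of 4 libraries. At 24 h the Pol I-AID libraries sit between 30.8 and 40.8 CPM for fmo-2, all below the TIR1 libraries at 61.8 to 124 CPM, whereas for fmo-1 the Pol I-AID mean is the higher of the pair.

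The size of the rise was large in both strains and, because it starts from 2 and 5 counts, imprecise. Pooled over 4 libraries, the 24 h to 0 h ratio of fmo-2 was 1654 in Pol I-AID (95% exact interval 457 to 13662) and 1344 in TIR1 (576 to 4141). The 12 h to 0 h ratio was 1139 in Pol I-AID (315 to 9414) and 492 in TIR1 (211 to 1516). These intervals cover counting error only, overlap between strains at both times, and treat counts as independent although both mates of a read pair appear to have been counted. The strains are better compared by the levels reached, which rest on 374 counts or more in every 24 h library.

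The timing of fmo-2 was compared between 12 and 24 h, where both strains have counts. The mean at 12 h was 67.5% of the mean at 24 h in Pol I-AID and 36.6% in TIR1, or 48.3% in TIR1 without the library labelled replicate 4. From 12 to 24 h the fitted log2 change was 0.57 (SE 0.55) in Pol I-AID and 1.45 (SE 0.56) in TIR1. The difference between these changes was −0.88 (SE 0.78, 95% interval −2.52 to 0.76, FDR 0.770 by edgeR's quasi-likelihood test over 6903 genes), and −0.49 (SE 0.51, FDR 0.816) without the library labelled replicate 4. A difference in timing between the strains was therefore not detectable with these libraries.

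Genes were called where the FDR was under 0.05 and the fold change at least 2. Of the 5 members, fmo-1, fmo-2 and fmo-5 had enough counts to be tested, and with all 24 libraries 0 of their 8 strain differences (fmo-2 at 0 h not counted) were called by edgeR, where the share of all tested genes called was 0.174% at 0 h, 2.46% at 12 h and 7.71% at 24 h. The unadjusted p was under 0.05 in 4 of the 8 (fmo-5 at 12 h and fmo-1, fmo-2 and fmo-5 at 24 h), as it was for 9.04% of all tested genes at 0 h, 15.8% at 12 h and 26.5% at 24 h, and DESeq2 and limma also called 0. Likewise 0 of 7 differences between strains in the change over time were called by edgeR, DESeq2 or limma, with 3 of 7 at an unadjusted edgeR p under 0.05, where the share of all genes was 2.07% from 0 to 12 h, 5.88% from 0 to 24 h and 0.319% from 12 to 24 h. The unadjusted p was under 0.05 for 12.2%, 21.5% and 10.5% of all genes in these 3 contrasts, in the same order.

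For fmo-2 the difference at 12 h, Pol I-AID over TIR1, was −0.59 on the log2 scale (SE 0.55, FDR 0.730), and −0.98 (SE 0.37, FDR 0.159) without the library labelled TIR1 12 h replicate 4. At 24 h it was −1.47 (SE 0.56, 95% interval −2.65 to −0.29, FDR 0.0848 by edgeR). The value at 24 h stayed at −1.46 without the library labelled TIR1 12 h replicate 4, which is not part of that comparison but enters the shared estimate of the spread, and the SE then fell to 0.35 and the FDR to 0.00534. fmo-2 was thus called without this library. With the library kept, it was also called without the count filter (−1.48, SE 0.20, FDR 6.03e-12), where 713 of 16110 genes were called. It was called too when the 24 h groups were fitted alone (−1.52, SE 0.20, FDR 0.0002), where 510 of 5521 genes were called. These low FDRs rest on the smaller SE of those fits, beside 0.56 in the main fit, and not on more libraries. By DESeq2 (−1.49, FDR 0.310) or limma (−1.49, FDR 0.122) fmo-2 was not called. Nor was it called by edgeR without replicate 1 (FDR 0.271), 2 (0.190) or 3 (0.219) of every group. With the library labelled TIR1 12 h replicate 4 left out, 7.87% of 7105 genes tested were called. A two-sided exact permutation test on the 4 against 4 libraries at 24 h, added after the values were seen, gave p = 0.0286, the smallest it can give, or 0.152 adjusted over 8 such tests on the 3 genes. All 4 libraries of Pol I-AID were below all 4 of TIR1 in 7.21% of the tested genes at 24 h.

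**Figure D2:**
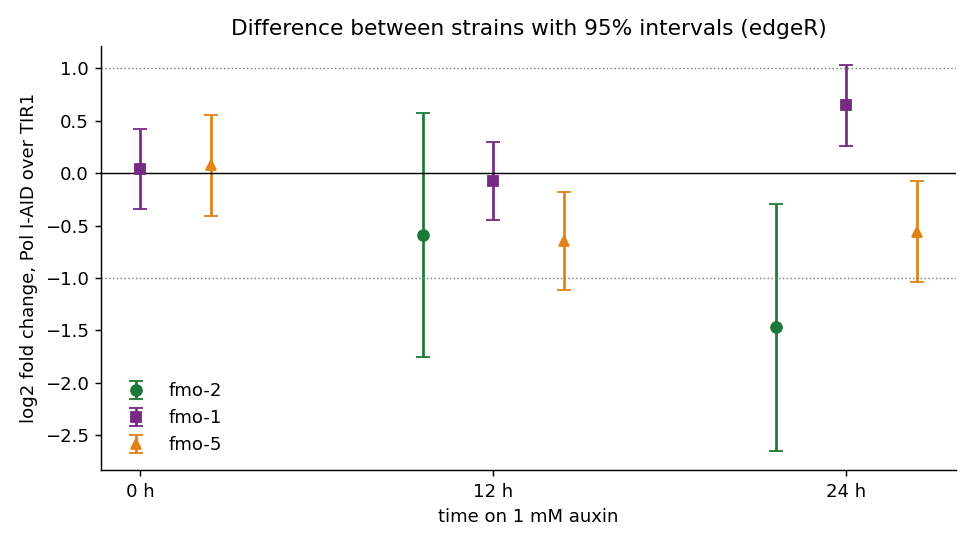
Fitted log2 fold change of Pol I-AID over TIR1 (y axis) at 0, 12 and 24 h on auxin (x axis) for fmo-2 (circles), fmo-1 (squares) and fmo-5 (triangles), with 95% intervals from the fit on all 24 libraries; dotted lines mark 2-fold, and fmo-2 at 0 h is not drawn. At 24 h fmo-2 lies at −1.47 and fmo-5 at −0.56, whereas fmo-1 lies at 0.65.

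fmo-1, which lies near fmo-2 on chromosome IV, was present at all times, and its strain difference at 24 h had the opposite sign to that of fmo-2. At 0 h it was at 19.6, 18.8, 17.98 and 19.8 CPM in Pol I-AID, against 21.7, 16.2, 14.96 and 20.7 CPM in TIR1, and at 12 h at 25.5, 30.3, 33.0 and 30.8 CPM in Pol I-AID, against 38.8, 30.9, 33.8 and 22.6 CPM in TIR1. The strains overlapped at both times, and the log2 differences were 0.04 (FDR 0.979) and −0.08 (FDR 0.932). At 24 h fmo-1 was at 32.8, 33.5, 27.8 and 25.5 CPM in Pol I-AID, against 26.7, 17.2, 13.7 and 19.9 CPM in TIR1. All but the lowest Pol I-AID library were above all 4 TIR1 libraries. The difference was 0.65 (SE 0.18, FDR 0.0181 by edgeR), or 1.57-fold, which passed the FDR but not the 2-fold threshold. The FDR was above 0.05 without TIR1 replicate 2 at 24 h (0.0566), without TIR1 replicate 3 at 24 h (0.115), and without Pol I-AID replicate 1 (0.0551) or 2 (0.0621) at 24 h. It was 0.192 without replicate 2 of every group, 0.176 without replicate 3 and 0.0533 (log2 0.60) with the 24 h groups fitted alone.

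In the time course, the mean of fmo-1 was 29.9 CPM in Pol I-AID both at 12 and at 24 h, whereas in TIR1 it was 31.5 CPM at 12 h and 19.4 CPM at 24 h. The log2 change from 12 to 24 h was 0.00 (SE 0.18) in Pol I-AID and −0.72 (SE 0.18) in TIR1. The difference between these changes was 0.72 (SE 0.25, FDR 0.273), and 0.85 (SE 0.24, FDR 0.146) without the library labelled TIR1 12 h replicate 4, so it did not pass over all genes.

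The strain differences of fmo-5 at 12 and 24 h had the sign of those of fmo-2, at a smaller size at 24 h. At 0 h it was at 12.3, 10.4, 11.7 and 11.8 CPM in Pol I-AID, against 14.02, 8.58, 9.89 and 11.2 CPM in TIR1, with a log2 difference of 0.07 (FDR 0.963). At 12 h it was at 12.6, 17.98, 16.4 and 15.7 CPM in Pol I-AID, against 30.03, 26.4, 30.6 and 11.5 CPM in TIR1. The 3 higher TIR1 libraries were above all of Pol I-AID and the library labelled replicate 4 was below them. The difference was −0.65 (SE 0.22, FDR 0.0957), and without that library −0.88 (SE 0.17, FDR 0.00324), which passed the FDR but not the 2-fold threshold, where 1.91% of genes were called. The difference between strains of the change from 0 to 12 h was −0.72 (SE 0.32, FDR 0.334) with the library and −0.96 (SE 0.24, FDR 0.0246) without it, under 2-fold in both cases, where 2.2% of genes were called without it.

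At 24 h fmo-5 was at 10.8, 13.4, 10.2 and 9.62 CPM in Pol I-AID, against 21.4, 13.05, 15.6 and 15.9 CPM in TIR1. The groups overlapped only through the highest Pol I-AID and the lowest TIR1 library. The log2 difference was −0.56 (SE 0.23, FDR 0.113), and −0.55 (SE 0.17, FDR 0.0280) without the library labelled TIR1 12 h replicate 4. Over time, the log2 change of fmo-5 from 0 to 12 h was 1.16 (SE 0.23) in TIR1 and 0.44 (SE 0.22) in Pol I-AID. These changes are given as a description with no test, since changes over time chose the members.

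fmo-3 and fmo-4 were hardly detected. fmo-3 had 4 counts in Pol I-AID 24 h replicate 3 and 0 counts in the other 23 libraries. fmo-4, which is known in worms mainly from the hypodermis, had 3 and 4 counts in Pol I-AID at 0 h (replicates 2 and 4), 2 counts in Pol I-AID 24 h replicate 3 and 6 counts in TIR1 0 h replicate 1. That TIR1 library also had the highest summed hypodermis markers, 185.6 CPM, and whether these reads came from hypodermis was not tested. A count of 0 allows up to 3 counts, or 0.0919 to 0.764 CPM depending on the library, and the limits cover counting error only. Neither gene entered the test.

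Compared per kb of exon, fmo-2 led in both strains at 24 h, and fmo-1 and fmo-5 were apart without overlap in Pol I-AID only. At 0 h fmo-1 led in both strains, with 9.38 ± 0.415 CPM per kb in Pol I-AID, against 9.05 ± 1.64 in TIR1, followed by fmo-5 with 6.97 ± 0.472 in Pol I-AID, against 6.59 ± 1.40 in TIR1 (SD, n = 4 each). The libraries of these neighbours did not overlap in Pol I-AID and overlapped in TIR1. At 12 h fmo-1 (14.7 ± 1.56) and fmo-2 (14.1 ± 2.67) did not differ beyond their spread in Pol I-AID, with fmo-5 lower at 9.47 ± 1.35. In TIR1 at 12 h fmo-2 (21.3 ± 18.3), fmo-1 (15.5 ± 3.33) and fmo-5 (14.9 ± 5.41) all lay within their spread.

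At 24 h the order in Pol I-AID was fmo-2 (20.9 ± 2.56 CPM per kb), fmo-1 (14.7 ± 1.91) and fmo-5 (6.66 ± 1.01), with no overlap of libraries between neighbours. In TIR1 it was fmo-2 (58.0 ± 17.0), then fmo-5 (9.95 ± 2.12) and fmo-1 (9.55 ± 2.71), which did not differ beyond their spread. Within TIR1 libraries, fmo-5 was above fmo-1 in replicate 3 alone (9.43 against 6.77 CPM per kb). The summed family per kb was 39.4 to 44.4 CPM per kb in Pol I-AID and 53.2 to 100.3 in TIR1 at 24 h. fmo-2 made up 44.5 to 54.8% of that sum in Pol I-AID and 69.3 to 81.0% in TIR1.

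The ratio of fmo-5 to fmo-1 within a library does not depend on the scaling of libraries. Chosen after its values were seen, it is given as a description with no test. At 24 h the ratio per kb was 0.406, 0.491, 0.451 and 0.463 in Pol I-AID, against 0.981, 0.929, 1.39 and 0.981 in TIR1, without overlap. Levels of single genes had no overlap at 24 h in 10.6% of tested genes with Pol I-AID above and 7.21% with it below. The share among ratios of other genes was not computed. At 12 h it was 0.609, 0.728, 0.611 and 0.623 in Pol I-AID, against 0.9497, 1.05, 1.11 and 0.623 in TIR1, where the lowest value again belonged to the library labelled replicate 4. At 0 h the strains overlapped fully, with 0.682 to 0.798 in Pol I-AID and 0.650 to 0.811 in TIR1.

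**Figure D3:**
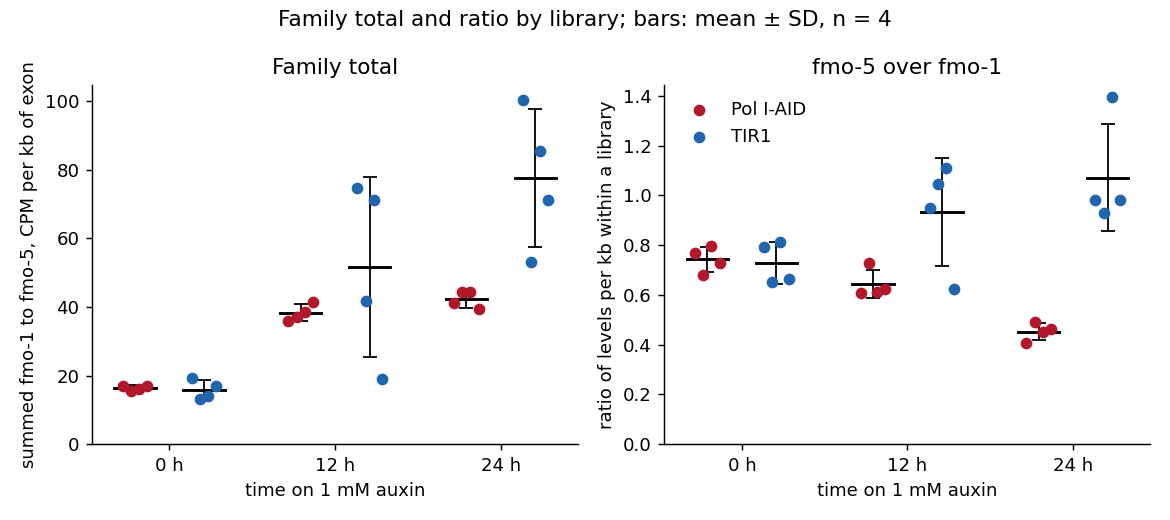
Left, the summed level of fmo-1 to fmo-5 per kb of exon (CPM per kb) in each library; right, the ratio of fmo-5 to fmo-1 per kb within each library; x axes give the time on auxin, red points are Pol I-AID, blue points TIR1 and black bars the mean ± SD of 4 libraries. At 24 h the ratio, chosen after its values were seen, is 0.406 to 0.491 in Pol I-AID, all below the 0.929 to 1.39 of TIR1, whereas at 0 h the strains overlap.

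In the WBcel235 annotation no other gene overlaps any of the 5 members. fmo-1 and fmo-2 lie on chromosome IV on the same strand with 3 coding genes between them, fmo-3 lies on III, and fmo-4 and fmo-5 on V. The genes beside fmo-2 did not move with it: its direct neighbours K08C7.4 and K08C7.6 had 0 counts in all 12 and 24 h libraries, and epi-1, which encodes a laminin chain, had at most 16 counts in a group at those times. Upstream of fmo-1, K08C7.1 was at 43.7 ± 4.25 CPM in Pol I-AID, against 22.3 ± 6.28 CPM in TIR1 at 24 h (SD, n = 4 each), a log2 difference of 0.99 (SE 0.19, FDR 0.00086 by edgeR), just under 2-fold. On the other side of fmo-1, K08C7.7 was low, at 0.992 ± 0.335 CPM in Pol I-AID, against 0.784 ± 0.347 CPM in TIR1 at 24 h. Its log2 difference was 0.28 (SE 0.50, FDR 0.783).

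Genes with a profile like that of fmo-2 were sought among the 1466 tested genes with a mean of at least 10 CPM, by the root mean square difference over the 6 centred group means of log2 CPM. The closest was drd-50 (1.56), followed by nfx-1 (2.06), gst-5 (2.11), cth-1 (2.20), grp-1 (2.26), sysm-1 (2.29), F14F9.4 (2.398) and gst-4 (2.43). The median gene was at 3.79, and the family members fmo-5 (3.58, rank 313) and fmo-1 (3.59, rank 326) were not among the close ones. fmo-2 deviated from its own mean by 3.78, which is the distance a gene with a flat profile would have. gst-4 and gst-5 encode glutathione S-transferases, gst-4 being a standard readout of the SKN-1 oxidative stress response, and cth-1 encodes a cystathionine gamma-lyase of the transsulfuration pathway. Without replicate 1, 7 of the 8 genes were shared.

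In most of these genes the fitted strain difference at 24 h had the opposite sign to that of fmo-2, but none of them was called at 24 h. drd-50 averaged 332 ± 12.1 CPM in Pol I-AID, against 161 ± 8.98 CPM in TIR1, and gst-4 averaged 160.4 ± 12.8 CPM in Pol I-AID, against 77.0 ± 7.90 CPM in TIR1 (SD, n = 4 each), both with all Pol I-AID libraries above all TIR1 libraries, as in 10.6% of the tested genes, and neither called (log2 1.04, FDR 0.0951; log2 1.06, FDR 0.0711). cth-1 averaged 277 ± 10.6 CPM in Pol I-AID, against 332 ± 138 CPM in TIR1. The fitted difference was positive for 6 of the 8, and negative for cth-1 (−0.26, SE 0.44) and sysm-1 (−1.32, SE 0.69). At 12 h grp-1 was called, with 56.8 ± 18.5 CPM in Pol I-AID, against 13.4 ± 10.97 CPM in TIR1 (log2 2.09, SE 0.52, FDR 0.0158; 1.75, FDR 0.0354 without the library labelled TIR1 12 h replicate 4).

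In the library labelled TIR1 12 h replicate 4 all 8 of these genes had the lowest level of their group, as did 26.2% of all tested genes. cth-1, for example, was at 28.8 CPM there, against 357 to 623 CPM in the other 3 TIR1 12 h libraries and 17.9 to 37.1 CPM in TIR1 at 0 h. nfx-1, sysm-1, F14F9.4 and gst-4 were also within their TIR1 0 h range. drd-50 (6.39 CPM, 0 h maximum 5.50) and gst-5 (4.85, 0 h maximum 3.78) were above it, and grp-1 (2.39, 0 h minimum 2.52) was below it. Of the family, fmo-2 (1.49, 0 h maximum 0.965) and fmo-1 (22.6, 0 h maximum 21.7) were above theirs, and fmo-5 was within it. The 8 genes were chosen on group means that include this library, so they are no independent sign of its state.

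**Figure D4:**
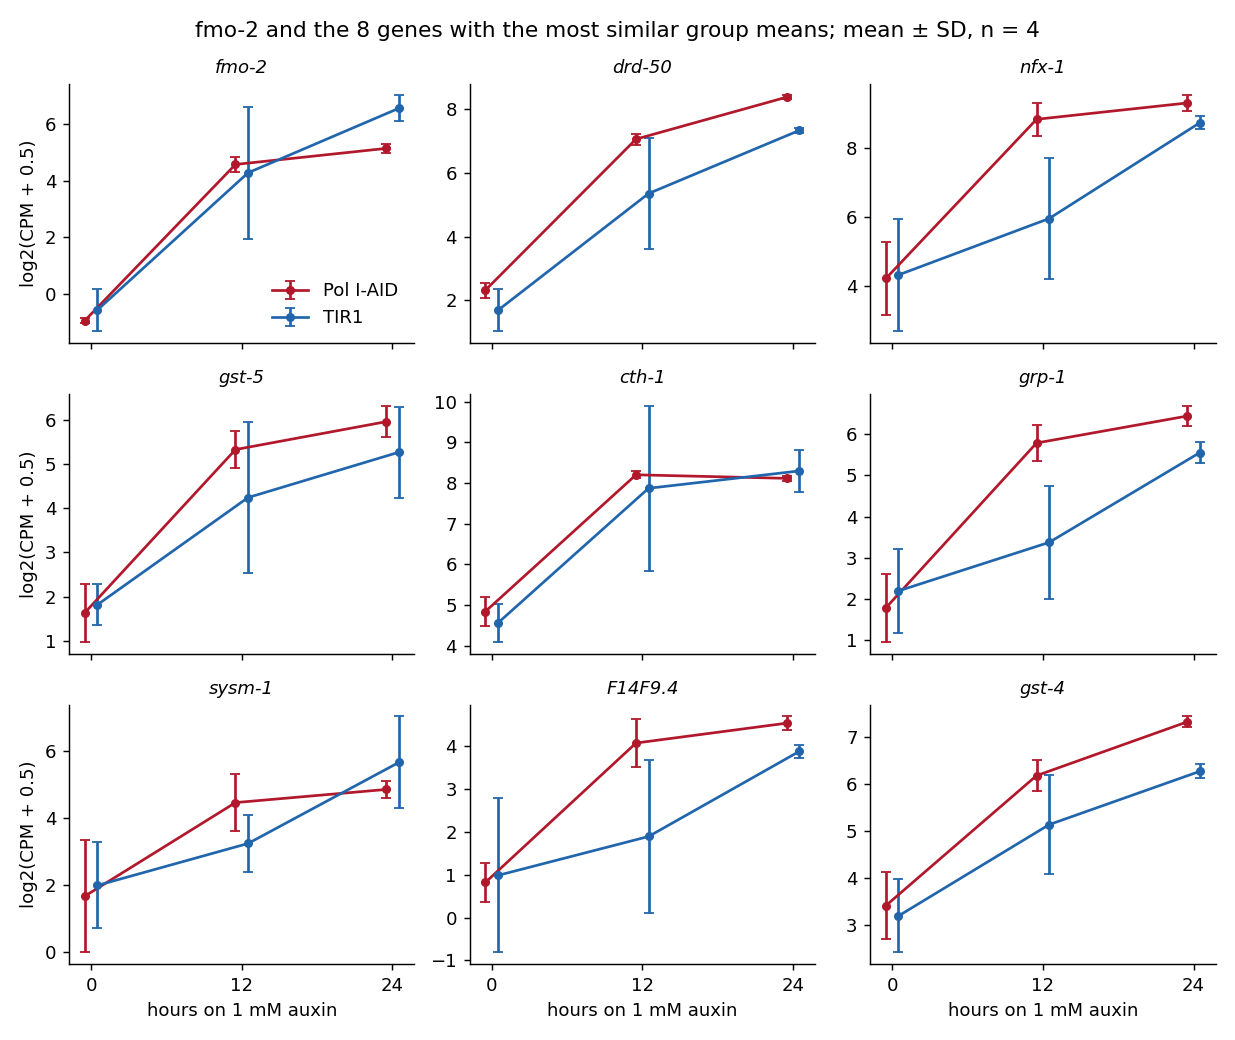
Mean log2(CPM + 0.5) (y axes) of fmo-2 and the 8 genes with the most similar group means at 0, 12 and 24 h on auxin (x axes); red is Pol I-AID, blue TIR1, and bars are the SD of 4 libraries. At 24 h the red fmo-2 point lies below the blue one, whereas for drd-50, gst-4 and 4 further genes it lies above.

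Of the 11 genes of the HIF-1 pathway, 8 were tested and 0 were called by edgeR at 12 h and at 24 h. An unadjusted edgeR p was under 0.05 for 0 of 8 at 12 h and 3 of 8 at 24 h, beside 15.8% of all genes at 12 h and 26.5% at 24 h, where edgeR called 2.46% and 7.71% of all genes. DESeq2 called 1 of the 8 lower at 24 h, and limma called 0. The list had a median log2 difference of 0.24 at 24 h beside −0.0019 over all genes tested. hif-1 was at 51.6 ± 5.84 CPM in Pol I-AID, against 43.1 ± 5.02 CPM in TIR1 at 24 h (log2 0.26, SE 0.13, FDR 0.186). egl-9, the prolyl hydroxylase that marks HIF-1 for degradation, was at 4.12 ± 1.92 CPM in Pol I-AID, against 3.21 ± 1.22 CPM in TIR1 (FDR 0.621). Levels of these mRNAs do not report HIF-1 protein.

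Of 15 transcription regulators tied to fmo-2, all 15 were tested. At 12 h, when 1.94% of all genes were called higher and 0.522% lower, skn-1, the Nrf-type stress regulator, was called higher in Pol I-AID (log2 1.01, SE 0.23, FDR 0.00926; 0.78, FDR 0.0185 and under 2-fold without the library labelled TIR1 12 h replicate 4), and nhr-13 was called lower (−1.19, SE 0.33, FDR 0.0326), a call that DESeq2 also made and limma did not, with a value just under 2-fold (FDR 0.0404). Without the library labelled TIR1 12 h replicate 4, the value of nhr-13 at 12 h was −1.31 (FDR 0.0297). At 24 h 0 of 15 were called by edgeR, DESeq2 or limma, with 5 of 15 at an unadjusted edgeR p under 0.05, beside 26.5% of all genes. hlh-30, the TFEB homologue, was at 14.7 ± 2.45 CPM in Pol I-AID, against 13.7 ± 3.91 CPM in TIR1 at 24 h (FDR 0.859). nhr-49, a nuclear receptor of fat metabolism and a known activator of fmo-2, was at 29.3 ± 2.56 CPM in Pol I-AID, against 52.0 ± 7.02 CPM in TIR1 at 24 h (SD, n = 4 each; log2 −0.82, SE 0.15, FDR 0.000374), which is under 2-fold, and at 50.1 ± 4.76 CPM in Pol I-AID, against 61.7 ± 10.2 CPM in TIR1 at 12 h (FDR 0.313).

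Over all tested genes, edgeR called 1.94% higher at 12 h, and 4.35% higher and 3.36% lower at 24 h. Of 5 NHR-49 targets, all tested, fat-5 (a fatty acid desaturase) was called higher at 12 h (log2 1.45, SE 0.38, FDR 0.0216) and acs-2 (an acyl-CoA synthetase of fat oxidation) was called lower at 24 h, on 0 counts in Pol I-AID and 43 counts in TIR1 over 4 libraries each (FDR 0.0181). Without the library labelled TIR1 12 h replicate 4, the value of fat-5 at 12 h was 1.53 (FDR 0.0384). Of the 5 tested of 9 tryptophan and kynurenine genes, afmd-1, an arylformamidase, was called higher at 24 h with 6.75 ± 0.929 CPM in Pol I-AID, against 1.78 ± 0.417 CPM in TIR1 (log2 1.98, SE 0.35, FDR 0.000289) and 0 were called lower. DESeq2 also called 1 of these 5 higher, and limma 2.

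Of the 15 tested of 20 one-carbon and transsulfuration genes, 0 were higher and 2 were lower at 24 h by edgeR, DESeq2 and limma alike, with 7 of 15 at an unadjusted edgeR p under 0.05. Of all genes, edgeR called 4.35% higher and 3.36% lower, with 26.5% at an unadjusted p under 0.05. pmt-1, a phosphoethanolamine methyltransferase of phosphocholine synthesis, was at 59.9 ± 11.8 CPM in Pol I-AID, against 143 ± 18.2 CPM in TIR1 (log2 −1.25, SE 0.13, FDR 3.87e-07), and cbs-1, a cystathionine beta-synthase, at 0.511 ± 0.343 CPM in Pol I-AID, against 1.77 ± 0.667 CPM in TIR1 (log2 −1.68, SE 0.55, FDR 0.0415). Of the 9 genes for NADPH and flavin supply, the cofactors of these enzymes, 0 were called by edgeR, DESeq2 or limma at 12 or 24 h, with an unadjusted edgeR p under 0.05 for 3 of 9 at 12 h and 6 of 9 at 24 h, beside 15.8% of all genes at 12 h and 26.5% at 24 h. Their median log2 difference at 24 h was −0.40, beside −0.0019 over all genes.

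In the other 3 detoxification families more genes were called higher in Pol I-AID than lower at 24 h. At 12 h, when 1.94% of all tested genes were called higher and 0.522% lower, 1 of 51 tested cyp genes was higher and 2 were lower. Of 21 tested gst genes 2 were higher and 0 lower at 12 h, and of 45 tested ugt genes 8 were higher and 0 lower. At 24 h, when 4.35% of all tested genes were called higher and 3.36% lower, 10 of 45 tested ugt genes (UDP-glucuronosyltransferases) were higher and 2 lower, 3 of 21 gst genes were higher and 1 lower, and 6 of 51 cyp genes (cytochromes P450) were higher and 1 lower. gst-24 was at 273 ± 86.9 CPM in Pol I-AID, against 1.46 ± 0.704 CPM in TIR1 (log2 7.45, SE 0.69, FDR 3.38e-08), gst-10 at 118 ± 22.2 CPM in Pol I-AID, against 46.9 ± 10.5 CPM in TIR1, and ugt-25 at 21.7 ± 4.03 CPM in Pol I-AID, against 4.998 ± 1.43 CPM in TIR1 (SD, n = 4 each). cyp-14A5 was at 25.6 ± 7.36 CPM in Pol I-AID, against 2.75 ± 0.732 CPM in TIR1. ugt-24 and cyp-25A3 were also called higher, and gst-19, ugt-15, ugt-49 and cyp-13A6 lower, all with means under 10 CPM in both strains at 24 h. Members of such families can share reads with close copies, which unique alignment leaves uncounted or splits.

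The targeted gene itself was low. Before auxin, rpoa-2 was at 0.853 ± 0.394 CPM in Pol I-AID, against 0.404 ± 0.303 CPM in TIR1 (log2 0.83, SE 0.59, FDR 0.735 by edgeR). At 12 h it was at 1.33 ± 0.237 CPM in Pol I-AID, against 0.586 ± 0.585 CPM in TIR1 (log2 1.22, SE 0.57, FDR 0.285). At 24 h it was at 1.06 ± 0.274 CPM in Pol I-AID, against 0.394 ± 0.194 CPM in TIR1 (SD, n = 4 each; log2 1.49, SE 0.63, FDR 0.127). The degron acts on the protein, so this level does not check its loss.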

How the data were processed

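RNA-seq of 24 libraries of dissected C. elegans intestine was analysed from the deposited table of counts. To make it, the authors trimmed the reads, aligned them with QuasR and hisat2 to ce10, kept unique alignments and counted those within WS220 exons, and the deposited counts were not normalized. Of 20392 gene IDs, 19182 (94.1%) matched a symbol. Chromosomes and neighbours came from the WBcel235 annotation, with no coordinates used. Counts were tested with edgeR 4.0.16 (R 4.3.3; TMM, filterByExpr, quasi-likelihood F-test, 1 mean per group on all 24 libraries, Benjamini-Hochberg FDR over 6903 genes), with calls at FDR 0.05 and 2-fold. In libraries, 70.1 to 82.4% of counts from 1 to 10 were even numbers, so counts are not independent molecules. Alternatives used DESeq2 1.42.0, limma 3.58.1 (pseudocount of 8) and other scalings, filters and samples. Exact tests used scipy. The script was tested on simulated data with 200 changed genes. Named besides the family were the 8 genes most like fmo-2, up to 2 called genes per direction of each list at 24 h, hif-1, egl-9, hlh-30, nhr-49, acs-2 and rpoa-2; other genes named (skn-1, nhr-13, fat-5, unc-13, myo-1 and the neighbours of fmo-1 and fmo-2) were chosen after their values were seen or by position. The members, lists and tests were chosen with earlier results of these data known. Replicates are described as independent biological replicates.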

Additional observations from a re-analysis of the deposited data

Results flagged for a closer look

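No library stood apart by its gap to the nearest other in any of 16 sets of 4 values of the family (0.8 expected by chance), and 0 of 7 differences between strains in the change over time passed the FDR by edgeR with all 24 libraries. By limma 1 of 7 passed it (fmo-1 from 0 to 24 h, 0.74, FDR 0.0450), and without the library labelled TIR1 12 h replicate 4 that of fmo-5 from 0 to 12 h did (−0.96, FDR 0.0246).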

How the results depend on the processing

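Over 44 results and 1398 alternatives, 1249 kept their direction and side of the threshold, 116 lost and 11 gained a call, and 22 changed sign, none of the latter past the FDR (lowest 0.733). A result called in neither fit counts as kept, and many alternatives left out a library outside the comparison. The tally is therefore no measure of robustness: fmo-1 at 24 h counted as kept with an FDR from 0.00357 to 0.192. The difference of fmo-2 at 24 h passed the thresholds without the count filter (−1.48, FDR 6.03e-12), with the compared groups alone (−1.52, FDR 0.0002), without replicate 4 (−1.55, FDR 0.0193) and without the library labelled TIR1 12 h replicate 4 (−1.46, FDR 0.00534), and ranged from −1.64 to −1.29 when libraries were left out. Its FDR rose to 0.271 without replicate 1 of every group, to 0.190 without replicate 2 and to 0.219 without replicate 3. The SE was 0.20 without the count filter and with the compared groups alone, beside 0.56 in the main fit. By DESeq2 the difference was −1.49 with an FDR of 0.310. The cause was not tested. Leaving out libraries gave −1.07 to −0.15 for fmo-2 at 12 h, −1.35 to −0.48 for its difference from 12 to 24 h, −0.017 to 0.13 for fmo-1 and −0.016 to 0.23 for fmo-5 at 0 h, −0.20 to 0.11 for fmo-1 at 12 h, −0.32 to −0.01 for the difference of fmo-1 from 0 to 12 h, −0.082 to 0.33 for the difference of fmo-5 from 12 to 24 h, and −9.55 to 0.24 for myo-1 at 24 h. Total counts as library sizes moved the median of all genes at 0 h to −0.18 and limma with a pseudocount of 8 moved it to −0.14. With these 2 settings fmo-1 at 0 h was −0.18 and −0.16, fmo-5 at 0 h −0.15 and −0.13, the difference of fmo-1 from 0 to 12 h 0.15 and 0.12 (all genes 0.16 and 0.15), and that of fmo-5 from 12 to 24 h −0.0536 and −0.0833. With limma, fmo-2 at 12 h was 0.34 (FDR 0.919). fmo-2 has no value where at least 10 counts were required in every library.

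With the replicate number as a replicate block, fmo-2 was −1.39 (FDR 0.0917) at 24 h, −0.27 (FDR 0.921) at 12 h and −1.12 (FDR 0.674) from 12 to 24 h, and no call of a family member changed. Same-numbered libraries of both strains correlated at −0.05 to 0.17, over 0.1 in 2 of 12 pairs, and 5 of 12 correlated best with their own number. Correlations this weak cannot tell whether the numbers pair the libraries. The number 1 does mark the less outcrossed versions of both strains. cyp-25A3 lost its call in 25 of 36 alternatives, gst-19 in 14 of 37, cbs-1 in 11 of 37 and myo-1 in 18 of 36. Among the calls at 12 h, nhr-13 lost its call in 13 of 37, skn-1 in 8 of 38, fat-5 in 5 of 37 and grp-1 in 5 of 38. At 0 h 12 genes were called, against 40 with total counts, 33 by DESeq2, 47 by limma, 151 without the filter and 2 with the groups alone. At 12 h 170 were called, against 93 with at least 10 counts in every library, and at 24 h 532, against 261. From 12 to 24 h 22 were called, against 51 by DESeq2 and 230 without the filter, from 0 to 12 h 143 against 289 and from 0 to 24 h 406 against 698 without the filter. Depth limits fmo-2 at 0 h, where the strains had 2 and 5 counts, and fmo-3 and fmo-4 throughout.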
